A study of Mus musculus with 23 samples.

Results

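De novo fatty acid synthesis was described through 10 genes: Acly, Acss2, Acaca, Acacb, Fasn, Elovl6, Scd1, Scd2, Me1 and Thrsp. They were taken by name from a table of 49585 mouse genes measured in 23 livers, and all 10 were among the 14466 genes with enough counts to be tested. Livers came from C57Bl/6J pups on postnatal day 21 (day 22 for MetS-Ct_97). The dams had eaten a diet with 10% fat (control) or 45% fat (high fat) since they were 3 weeks old, for either 7 or 17 weeks, and had been mated to males on control diet. The exposure is named maternal MetS in the series, and a group's name gives the birth dam first and the nursing dam second. MetS-MetS pups were exposed before and after birth (n = 5), Ct-MetS pups only while nursed (n = 6), MetS-Ct pups only before birth (n = 6) and Ct-Ct pups at neither time (n = 6). All litters, the controls included, had been cut to 5 pups and fostered at birth. For single animals, neither sex nor litter nor how long the dam ate her diet is stated in the sources used here. Pups of 1 litter could therefore be among the replicates, in which case the p-values would be too small.

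Hepatocytes build fatty acids from carbohydrate when insulin and glucose are high. Citrate leaves the mitochondrion and is split to acetyl-CoA, carboxylase makes malonyl-CoA, fatty acid synthase assembles palmitate with NADPH as reductant, and an elongase and a desaturase turn palmitate into stearate and oleate. In rodent liver the genes of this route are known targets of the transcription factors encoded by Srebf1 and Mlxipl, are low in the fasted or suckling state and rise when pups move to solid, carbohydrate-rich food at weaning.

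Promoter sequences were examined because most of these genes varied together between livers. RefSeq (GRCm38.p6) windows from 250 bases before to 50 bases after an annotated start were used for 8 of the 10 genes, Scd1 and Scd2 not among them, and Me1 had 2, so that there were 9 windows. The RefSeq starts of Acaca and Acacb and the second of Me1 lie 65766, 18983 and 8676 bases inside the gene spans given below, and the other 6 within 180 bases of the span's start. The 3 windows shown are those of Fasn at chr11:120824498-120824797 (minus strand) and Elovl6 at chr3:129532136-129532435 (plus strand), whose levels followed each other closely, and of Thrsp at chr7:97417501-97417800 (minus strand). The difference with the nursing dam passed the edgeR test for Elovl6, but not for Fasn (adjusted p = 0.0532) or Thrsp (adjusted p = 0.395). Each is printed 5′ to 3′ on the gene's strand, and capitals mark matches on either strand to 4 motifs, of which only the NF-Y box was found in these windows. That box reads CCAAT on the gene's strand, or ATTGG where the match lies on the opposite one.
Fasn: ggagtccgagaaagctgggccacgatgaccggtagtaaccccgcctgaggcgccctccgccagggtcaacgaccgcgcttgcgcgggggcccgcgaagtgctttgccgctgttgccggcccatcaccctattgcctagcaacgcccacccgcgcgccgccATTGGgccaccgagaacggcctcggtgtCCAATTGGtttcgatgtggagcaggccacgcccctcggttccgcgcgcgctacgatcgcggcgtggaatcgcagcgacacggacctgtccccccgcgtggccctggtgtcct
Elovl6: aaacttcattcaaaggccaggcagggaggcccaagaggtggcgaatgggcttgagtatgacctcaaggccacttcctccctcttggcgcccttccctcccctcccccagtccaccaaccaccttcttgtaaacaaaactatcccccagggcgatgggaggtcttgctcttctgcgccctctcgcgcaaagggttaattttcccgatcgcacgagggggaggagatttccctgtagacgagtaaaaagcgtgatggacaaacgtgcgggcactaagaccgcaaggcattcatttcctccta
Thrsp: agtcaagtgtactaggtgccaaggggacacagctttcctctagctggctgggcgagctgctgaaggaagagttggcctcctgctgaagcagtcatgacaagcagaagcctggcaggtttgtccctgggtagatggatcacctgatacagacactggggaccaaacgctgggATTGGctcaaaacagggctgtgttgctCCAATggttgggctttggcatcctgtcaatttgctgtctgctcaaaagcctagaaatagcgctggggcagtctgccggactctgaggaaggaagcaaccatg
Fasn held the NF-Y box at −90, −62 and −59 relative to its RefSeq start, the last 2 matches overlapping on opposite strands. Thrsp held it at −79 and −52, and Elovl6 held none of the motifs. The NF-Y box was present in 6 of the 9 windows, against 37.4% of 32851 RefSeq promoters of the same length, and the match of Me1 was in its inner window. The Sp1 box GGGCGG was present in 3 of the 9 windows (those of Acly and Acss2 and the outer one of Me1), against 35.7% of promoters. The sterol response element TCACNCCAC and the E-box CACGTG were matched in 0 of the 9, against 1.24% and 7.15% of promoters. With shares this low, 9 windows are too few to tell a lack of these motifs from the usual share. These are letter matches in 1 short window per start, and binding was not measured.

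Levels are given as CPM, that is counts scaled by library size with a normalization factor (TMM). Library totals ran from 16876460 to 34527932 counts, and the lowest count of any of the 10 genes in any liver was 126, for Elovl6 in MetS-MetS_39. Hepatocyte markers summed to between 111471 and 158185 CPM in every liver, and 0 of 10 passed the test with nursing exposure, with 3 at an unadjusted p under 0.05, against 21.2% of all genes. In MetS-MetS over Ct-Ct 0 of 10 passed as well. There 5 had an unadjusted p under 0.05, against 24.4% of all genes, with a median log2 fold change of 0.29. The sums were 143200 to 158185 CPM in MetS-MetS and 111471 to 148178 CPM in Ct-Ct. In bulk liver, fewer cells of a type and less RNA per cell cannot be told apart. Compared per kilobase of exon, Scd1 was the most abundant of the 10 in Ct-Ct livers, at a mean of 2726 CPM per kb, and Scd2 the least, at 2.53. Acly followed Scd1 at 188 CPM per kb, then Thrsp at 185, Fasn at 144, Elovl6 at 57.0, Me1 at 50.3, Acss2 at 46.5, Acaca at 23.4 and Acacb at 22.4. Only the ends of this order stood clear of the spread in Ct-Ct livers. The lowest Scd1 level (594 CPM per kb) lay above the highest Acly level (506), and the highest Scd2 level (3.79) lay below the lowest Acacb level (6.46). In MetS-MetS livers Scd1 averaged 396 CPM per kb and Scd2 2.01, and Elovl6, at 4.44, came ninth.

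**Figure D1:**
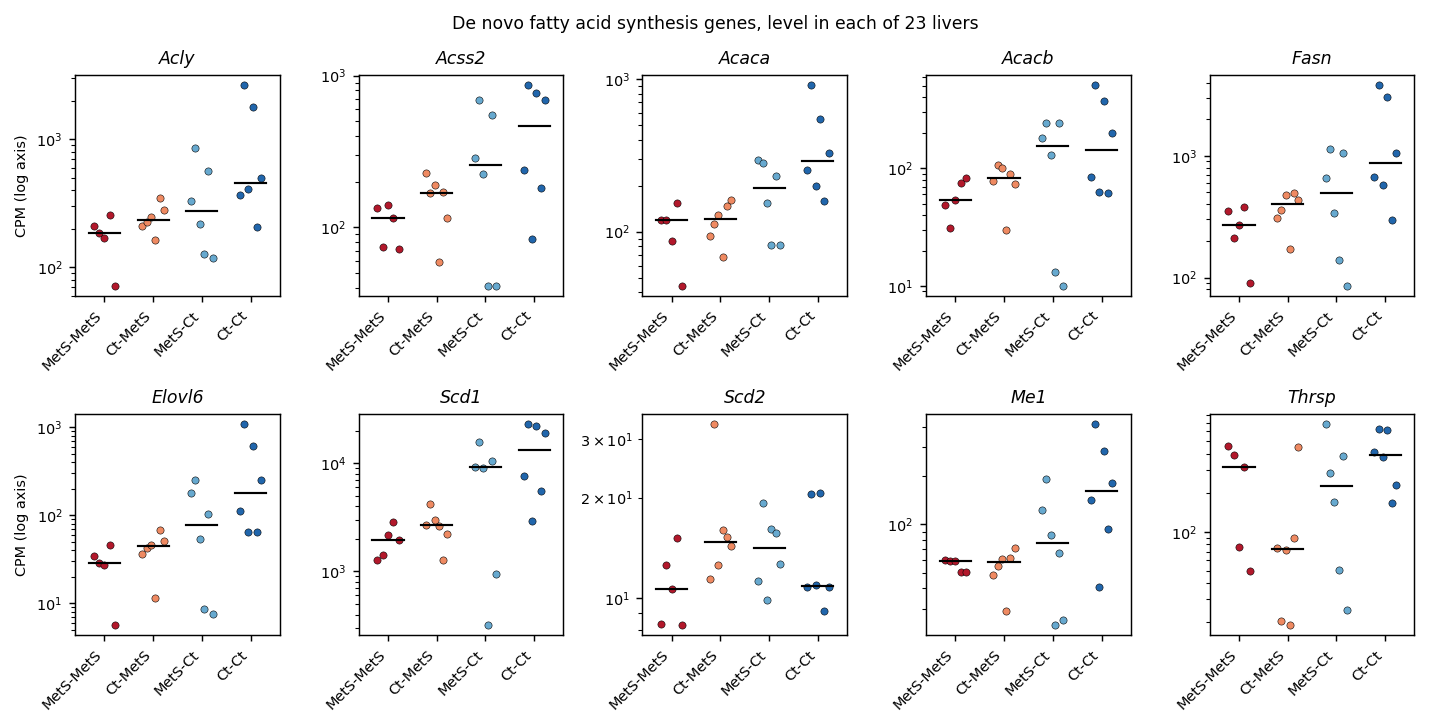
Level of each of the 10 genes in 23 livers, as CPM on a log axis, with 1 point per liver and a bar at the group median. Groups run from MetS-MetS through Ct-MetS and MetS-Ct to Ct-Ct. Scd1 lay between 1266 and 4209.8 CPM in all livers nursed by MetS dams, against 318 to 23015 CPM in livers nursed by control dams.

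A few livers were high or low for most of the 10 genes at once. Together the 10 genes took 3.56% of all counts in Ct-Ct_129, 3.14% in Ct-Ct_139 and 2.31% in Ct-Ct_4, but 0.0831% in MetS-Ct_70 and 0.131% in MetS-Ct_97. In MetS-MetS livers their share was 0.228% to 0.408%. MetS-Ct_97 is the animal labelled a day older than the rest, and MetS-Ct_70, of the same age as the others, was as low. MetS-Ct_70 and MetS-Ct_97 had Acacb at 13.2 and 10.0 CPM, Fasn at 138 and 85.2 CPM and Elovl6 at 8.62 and 7.56 CPM. The other 4 MetS-Ct livers had Fasn between 337 and 1132 CPM, which overlaps the Ct-Ct range.

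**Figure D2:**
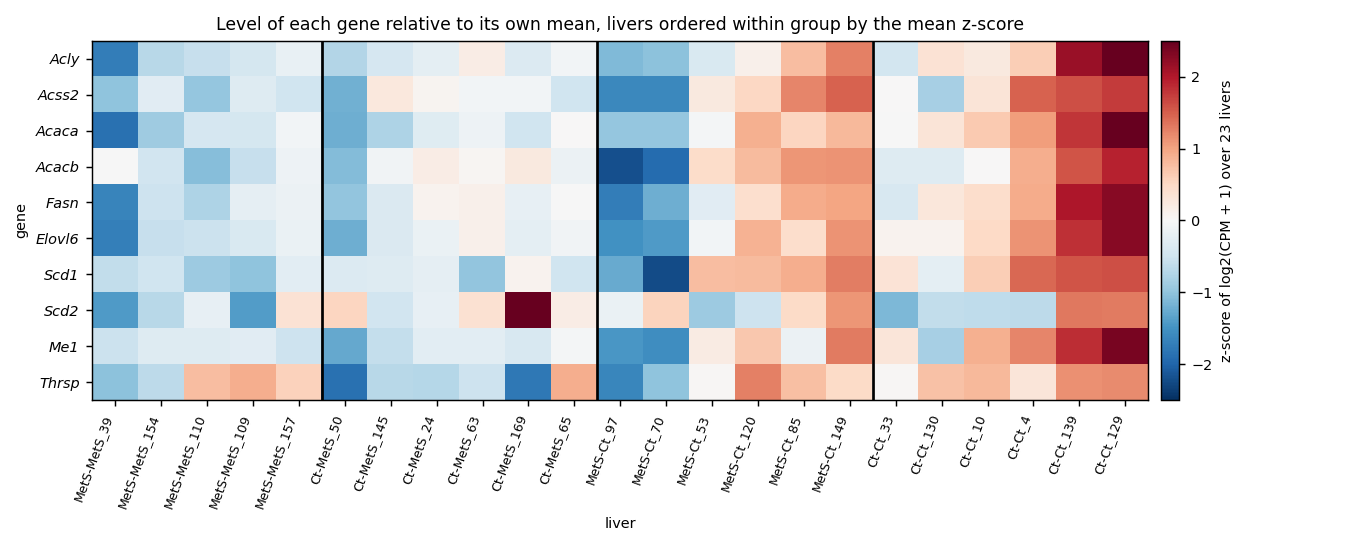
Level of each gene (rows) in each liver (columns) as a z-score of log2(CPM + 1) over the 23 livers, red for high and blue for low. Livers are ordered within MetS-MetS, Ct-MetS, MetS-Ct and Ct-Ct by their mean z-score, which ran from −1.36 in MetS-Ct_97 to 1.99 in Ct-Ct_129, and most genes change colour together except Scd2 and Thrsp.

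ATP citrate lyase, the main carboxylase, the elongase and the main desaturase were lower in pups nursed by MetS dams. Averaged over both birth states, the comparison sets 11 livers of pups nursed by MetS dams against 12 of pups nursed by control dams. Of the 10 genes, 4 fell (Acly, Acaca, Elovl6 and Scd1) and 0 rose, where 4.22% of all genes tested passed. All 10 log2 fold changes were below 0, with a median of −1.43, against a median of −0.0075 over all genes. The 4 calls were lost without the control livers of highest level. With Ct-Ct_129 and Ct-Ct_139 both left out, 0 of the 10 passed (edgeR, lowest adjusted p = 0.0642, for Scd1) and the median became −0.88. With the control-nursed livers of lowest level, MetS-Ct_70 and MetS-Ct_97, both left out, 8 of the 10 passed, all lower. Both settings were chosen after seeing the data. Leaving out Ct-Ct_129 or MetS-MetS_154 alone left 2 calls, and leaving out Ct-Ct_130, Ct-Ct_33, MetS-Ct_70 or MetS-Ct_97 alone gave 7, as did DESeq2 on all livers.

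Of the enzymes that supply acetyl-CoA, Acly fell with nursing exposure and Acss2 did not pass. Acly encodes ATP citrate lyase, which splits cytosolic citrate, and lies on chr11:100476353-100528000 (GRCm38). Its level ran from 71.6 through a median of 212 to 350 CPM in pups nursed by MetS dams, against 119, 388 and 2671 CPM in pups nursed by control dams. The ranges overlapped, although all 11 livers of the first group lay below the mean of the second. Acly fell by 1.53 ± 0.42 log2 units (SE, adjusted p = 0.0427), a call lost without any 1 of 13 single livers. Acss2 makes acetyl-CoA from acetate in the cytosol and lies on chr2:155517948-155585724. Its values were 59.4, 133 and 228 CPM (lowest, median and highest) in pups nursed by MetS dams, against 40.9, 263 and 873 CPM. The log2 difference was −1.56 ± 0.46 (adjusted p = 0.0560), short of the threshold. It was about as large as that of Acly, and whether the changes of Acly and Acss2 differ was not tested. Opposite-strand genes share exon bases with Acss2 (3.89% of them with Gss, 3.3% with Acss2os and 1.94% with Ggt7), and no source used here says whether strand was used in counting.

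Of the acetyl-CoA carboxylases, Acaca passed and Acacb did not. Acaca, on chr11:84129672-84401651, encodes the cytosolic form that makes malonyl-CoA for synthesis. Its level was 44.0, 118 and 160 CPM (lowest, median and highest) in pups nursed by MetS dams, against 81.7, 241 and 916 CPM in pups nursed by control dams. Acaca fell by 1.30 ± 0.31 log2 units (adjusted p = 0.0207), and the call held when any 1 of the 23 livers was left out. Acacb, on chr5:114146535-114250761, encodes the form at the outer mitochondrial membrane, whose product restrains entry of fatty acids for oxidation. It ran from 29.9 through 74.6 to 107 CPM in pups nursed by MetS dams, against 10.0, 155 and 514 CPM, and the control-nursed livers thus held both its lowest and its highest values. Its log2 difference was −1.33 ± 0.48 (adjusted p = 0.118). That is close to the change of Acaca, with a larger SE. Whether the changes of Acaca and Acacb differ was not tested.

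Fasn, the fatty acid synthase on chr11:120805846-120824547, had values of 90.7, 354 and 499 CPM (lowest, median and highest) in pups nursed by MetS dams, against 85.2, 667 and 3849.8 CPM. The difference was −1.60 ± 0.46 on the log2 scale (adjusted p = 0.0532). It passed without any 1 of Ct-Ct_130, Ct-Ct_33, MetS-Ct_70 and MetS-Ct_97, and so did those of Acss2 and Me1.

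The elongase and the main liver desaturase had the largest fitted differences of the 10 genes. Elovl6, on chr3:129532355-129638495, lengthens palmitate to stearate. It lay at 5.65, 36.0 and 69.0 CPM (lowest, median and highest) in pups nursed by MetS dams, against 7.56, 107 and 1092 CPM in pups nursed by control dams. Elovl6 fell by 2.46 ± 0.61 log2 units (adjusted p = 0.0275), and the call was lost without Ct-Ct_129 or without MetS-MetS_154. Scd1, on chr19:44394455-44407879, encodes the stearoyl-CoA desaturase that makes oleate. It ran from 1266 through 2199.9 to 4209.8 CPM in pups nursed by MetS dams, against 318, 9128 and 23015 CPM. Of the 12 control-nursed livers, MetS-Ct_70 (318 CPM) and MetS-Ct_97 (939.9 CPM) lay below every MetS-nursed liver. Scd1 fell by 2.15 ± 0.49 log2 units (adjusted p = 0.0170) and kept its call without any single liver.

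Scd2, a desaturase known for its high level in brain and in newborn tissues of mice, lies beside Scd1 on chr19:44293674-44306864. Its level was 8.29, 12.6 and 33.3 CPM in pups nursed by MetS dams, against 9.16, 12.0 and 20.7 CPM, and the medians were close. The log2 difference was −0.03 ± 0.19 (adjusted p = 0.953), with an interval of −0.40 to 0.34 (95%, from the SE). That interval excludes a change as large as the fitted one of Scd1, but whether the changes of the paralogs differ was not tested. No source used here says how reads that match both genes were counted.

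Me1 encodes the cytosolic malic enzyme, a source of NADPH, and lies on chr9:86581371-86695953. Its values were 29.1, 59.0 and 71.5 CPM in pups nursed by MetS dams, against 23.6, 108 and 419 CPM, with a log2 difference of −1.22 ± 0.35 (adjusted p = 0.0511). Thrsp, on chr7:97412938-97417730, encodes a thyroid hormone responsive protein that is not itself an enzyme and is known to accompany lipogenesis. It ran from 18.9 through 76.5 to 459.6 CPM in pups nursed by MetS dams, against 25.0, 331 and 683 CPM. High values in the first group came from MetS-MetS_109, MetS-MetS_110, MetS-MetS_157 and Ct-MetS_65. Its log2 difference was −0.89 ± 0.57 (adjusted p = 0.395), and −1.46 without Ct-MetS_65.

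**Figure D3:**
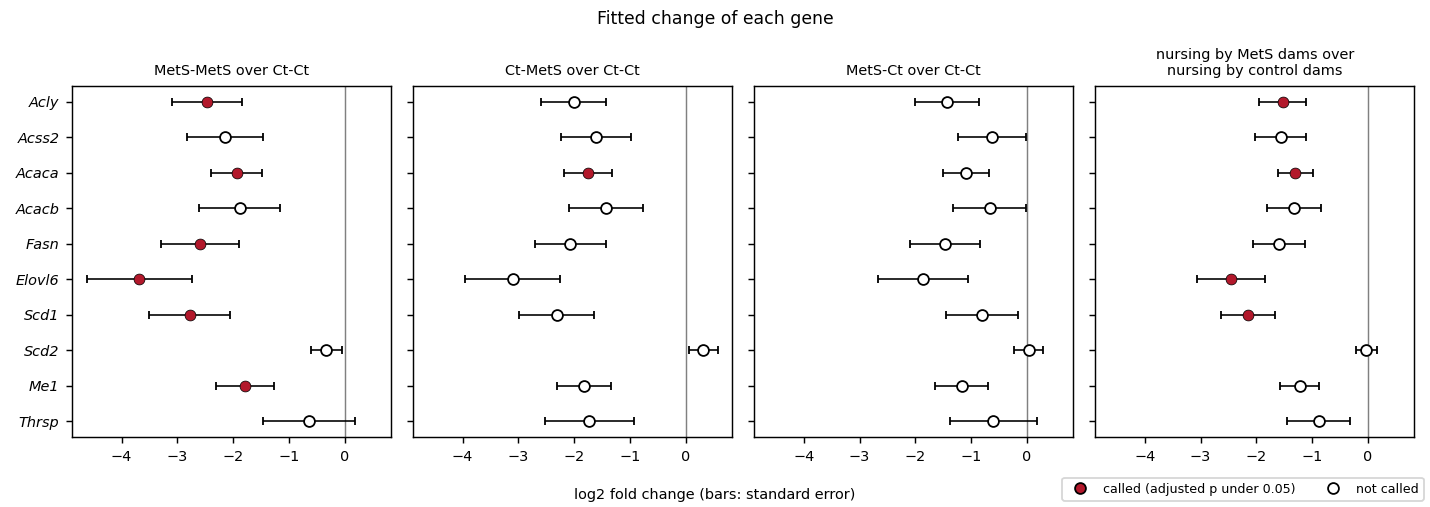
Fitted log2 fold change of each gene (points) with its standard error (bars) in 4 comparisons, filled where the adjusted p was under 0.05. For MetS-MetS over Ct-Ct 6 genes are filled, for Ct-MetS over Ct-Ct 1, for MetS-Ct over Ct-Ct 0 and for nursing exposure 4, and Scd2 lies between −0.33 and 0.31 in each.

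The MetS-MetS group had the lowest of the 4 group medians for 8 of the 10 genes, all but Me1 and Thrsp. In MetS-MetS over Ct-Ct, 6 of the 10 fell (Acly, Acaca, Fasn, Elovl6, Scd1 and Me1), where 5.78% of all genes passed. The median log2 fold change was −2.04, and all 10 were below 0. Elovl6 had 5.65, 27.3, 28.7, 35.0 and 46.3 CPM in the 5 MetS-MetS livers, against 64.5, 65.4, 111, 250.1, 618 and 1092 CPM in the 6 Ct-Ct livers. The groups did not overlap. Elovl6 fell 12.8-fold (log2 fold change −3.68 ± 0.94 SE, adjusted p = 0.0278). Scd1 had 1266, 1406, 1943, 2193 and 2879.98 CPM in MetS-MetS livers, against 2906, 5566, 7623, 18892, 22006 and 23015 CPM in Ct-Ct livers, again without overlap. Scd1 fell 6.88-fold (−2.78 ± 0.73, adjusted p = 0.0307).

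Fasn had 90.7, 210.0, 271, 354 and 383 CPM in MetS-MetS livers, against 298, 572, 671, 1061, 3028 and 3849.8 CPM in Ct-Ct livers. Its groups overlapped through Ct-Ct_33, and Fasn fell 6.04-fold (−2.59 ± 0.70, adjusted p = 0.0352). Acly fell 5.55-fold (−2.47 ± 0.63, adjusted p = 0.0276), Acaca 3.84-fold (−1.94 ± 0.46, adjusted p = 0.0202) and Me1 3.46-fold (−1.79 ± 0.52, adjusted p = 0.0470). Acaca was the third gene without overlap, at 44.0 to 153 CPM in MetS-MetS livers against 159 to 916 CPM in Ct-Ct livers. Ranges without overlap were thus found for 3 of the 10 genes, against 4.41% of all genes tested. Acss2 (−2.15 ± 0.68, adjusted p = 0.0636), Acacb (−1.89 ± 0.72, adjusted p = 0.114), Scd2 (−0.33 ± 0.28, adjusted p = 0.493) and Thrsp (−0.64 ± 0.82, adjusted p = 0.680) did not pass. Without both Ct-Ct_129 and Ct-Ct_139, 0 of the 10 passed (lowest adjusted p = 0.164, for Acaca) and the median was −1.12. Without MetS-Ct_70 and MetS-Ct_97, which enter through the shared estimate of the spread, 8 of the 10 passed, Acss2 (adjusted p = 0.0263) and Acacb (adjusted p = 0.0388) being the further ones. Leaving out Ct-Ct_129 alone also left 0 of the 10, and leaving out 1 of MetS-MetS_109, MetS-MetS_110, MetS-MetS_154, MetS-MetS_157, MetS-MetS_39, Ct-Ct_139 or Ct-Ct_4 left 1 to 3.

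Nursing exposure alone, in Ct-MetS over Ct-Ct, gave 1 call among the 10 genes, where 0.954% of all genes passed. Acaca had 68.2, 93.2, 113, 129.35, 147 and 160.0 CPM in Ct-MetS livers, against 159, 199, 252, 327, 548 and 916 CPM in Ct-Ct livers. The groups met at a single pair of livers, Ct-MetS_65 and Ct-Ct_33. Acaca fell 3.38-fold (−1.76 ± 0.42, adjusted p = 0.0494), and the call was lost without any 1 of 17 single livers. The other genes had adjusted p values of 0.0762 (Me1) to 0.676 (Scd2), with a median of −1.79 over the 10, and 9 of the 10 had an unadjusted p under 0.05, against 13.9% of all genes. DESeq2 called 6 of the 10 in this comparison. Without Ct-Ct_129 and Ct-Ct_139 edgeR called 0 and the median was −0.96, and without MetS-Ct_70 and MetS-Ct_97 it called 4. Scd2 alone had a fold change above 0 (0.31 ± 0.26).

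In pups exposed before birth, MetS-MetS over MetS-Ct, edgeR called 0 of the 10 genes, where 0.415% of all genes passed. Of the 10, 3 had an unadjusted p under 0.05, against 14.1% of all genes, and DESeq2 called 1. All 10 fold changes were below 0, with a median of −1.08 on the log2 scale, from −1.98 ± 0.70 for Scd1 (adjusted p = 0.223) to −0.04 ± 0.82 for Thrsp. The MetS-Ct group held MetS-Ct_70 and MetS-Ct_97, and with both left out the median was −1.53 and the lowest adjusted p 0.124.

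Exposure before birth alone, MetS-Ct over Ct-Ct, gave 0 calls among the 10 genes by edgeR or DESeq2 and 0% over all genes by edgeR. Of the 10, 5 had an unadjusted p under 0.05, against 5.9% of all genes. Elovl6 had the largest difference (−1.87 ± 0.81, adjusted p = 0.825), followed by Fasn (−1.47 ± 0.63) and Acly (−1.43 ± 0.57). The median of the 10 was −0.95, against −0.17 without Ct-Ct_129 and Ct-Ct_139 and −0.50 without MetS-Ct_70 and MetS-Ct_97. Among pups nursed by MetS dams, MetS-MetS over Ct-MetS, 0 of the 10 passed by either tool and 0% of all genes by edgeR, with a median of −0.46 and 1 gene, Scd2 (−0.64 ± 0.28, adjusted p = 0.271), at an unadjusted p under 0.05, against 15.6% of all genes. Thrsp had the opposite sign, with 49.8, 76.5, 315, 396 and 459.6 CPM in MetS-MetS livers, against 18.9, 20.5, 72.0, 74.4, 89.7 and 457 CPM in Ct-MetS livers (1.09 ± 0.82, adjusted p = 0.530).

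Prenatal exposure averaged over both nursing states called 0 of the 10 genes by edgeR or DESeq2, where 0.00691% of all genes passed by edgeR. The median was −0.61, against −0.25 without Ct-Ct_129 and Ct-Ct_139 and −0.35 without MetS-Ct_70 and MetS-Ct_97, and 4 of the 10 had an unadjusted p under 0.05, against 16.3% of all genes. Fasn was among the 4 (−0.997 ± 0.45, adjusted p = 0.284). The interaction asks whether the effect of the nursing dam differed with the birth dam. It passed for 0 of the 10 by either tool and for 0% of all genes by edgeR, and 0 of the 10 had an unadjusted p under 0.05, against 5.44% of all genes. Its standard errors were wide, 0.38 to 1.14 on the log2 scale. The interaction of Fasn was 0.95 ± 0.89 and that of Scd1 0.34 ± 0.92. Without Ct-Ct_129 and Ct-Ct_139 both had the opposite sign, at −0.35 for Fasn and −0.28 for Scd1.

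By the median over genes, livers of 1 group were closer to each other in pups nursed by MetS dams. The coefficient of variation, as a median over the 10 genes, was 37.1% in MetS-MetS, 35.3% in Ct-MetS, 78.0% in MetS-Ct and 72.2% in Ct-Ct. The highest liver exceeded the lowest by a median of 3.09-fold in MetS-MetS, 3.11-fold in Ct-MetS, 15.1-fold in MetS-Ct and 9.27-fold in Ct-Ct. Scd1 showed the widest range, 49.5-fold among MetS-Ct livers, and Me1 the narrowest, 1.19-fold among MetS-MetS livers (50.4 to 60.2 CPM). Thrsp and Scd2 did not follow the median. Thrsp had a coefficient of variation of 71.9% in MetS-MetS and 137% in Ct-MetS, against 92.2% in MetS-Ct and 46.6% in Ct-Ct. Scd2 had 26.6% in MetS-MetS and 47.2% in Ct-MetS, against 24.8% in MetS-Ct and 38.4% in Ct-Ct. For every gene but Scd2, Ct-Ct_129 had the highest Ct-Ct level, and MetS-Ct_70 or MetS-Ct_97 the lowest MetS-Ct level. The difference in spread between groups was not tested, and the spread over all genes is not given.

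The genes also moved together from liver to liver when the 4 groups were pooled around their own means. Groups with a wider spread, for most of the genes those nursed by control dams, weigh more in such a correlation. It was not computed inside each group, and no share over pairs of all genes is given. After the group means of log2(CPM + 1) were removed, 38 of the 45 gene pairs were correlated over the 23 livers (adjusted p under 0.05 by 100000 permutations within groups). All 28 pairs without Scd2 and Thrsp passed, with Pearson r of 0.645 to 0.965. Fasn and Elovl6 had r = 0.962 and Spearman rho = 0.983 (permutation p = 1e-05 each, the smallest that the permutations can give, adjusted 5e-05 and 7.5e-05). Without Ct-Ct_129 and Ct-Ct_139, the livers farthest from the median of Fasn, r was 0.951. Fasn and Scd1 had r = 0.726 and rho = 0.693 (permutation p = 0.00297 and 0.00231, adjusted 0.00431 and 0.00385), and r = 0.696 without those livers.

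Pairs with Scd2 were correlated in 3 of 9 cases and pairs with Thrsp in 7 of 9. Fasn and Thrsp had r = 0.708 and rho = 0.743 (permutation p = 4e-05 and 9e-05, adjusted 0.000138 and 0.000368), and r = 0.734 without the same 2 livers. Fasn and Scd2 had r = 0.464 and rho = 0.439 (permutation p = 0.0301 and 0.0521, adjusted 0.0366 and 0.0617). That relation rests on 2 livers, as r was 0.214 without Ct-Ct_129 and Ct-Ct_139. The other called pairs of Scd2 also dropped without them, from r = 0.577 to 0.318 with Acly and from 0.461 to 0.208 with Acaca. Scd2 and Thrsp had r = 0.00681 and rho = 0.112 (permutation p = 0.976 and 0.621).

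**Figure D4:**
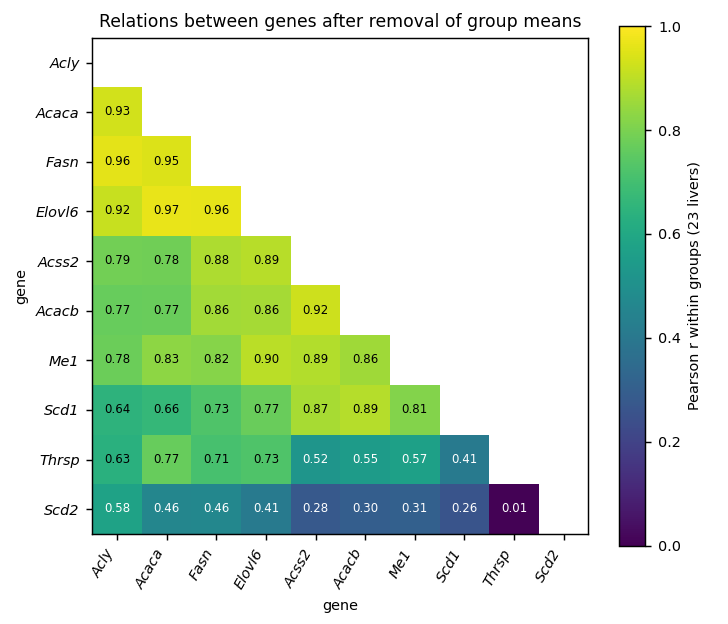
Pearson r between each pair of the 10 genes over 23 livers after removal of group means. The block of Acly, Acaca, Fasn, Elovl6, Acss2, Acacb, Me1 and Scd1 lies between 0.645 and 0.965, and the rows of Thrsp and Scd2 reach 0.767 and 0.577 at most.

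Proportions between the enzymes differed in a few livers. In MetS-MetS_39, Acacb stood at 0.917 of the CPM of Fasn, against 0.0953 to 0.387 in the other 22 livers. That liver had the lowest Elovl6 of all (5.65 CPM) with Scd1 (1943 CPM) at the median of its group. Scd1 was 2.30 times Fasn in MetS-Ct_70, 2.55 times in Ct-MetS_63 and 26.9 times in MetS-Ct_53. Ct-MetS_63 had the lowest Scd1 (1272 CPM) and the highest Fasn (499 CPM) of its group.

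**Figure D5:**
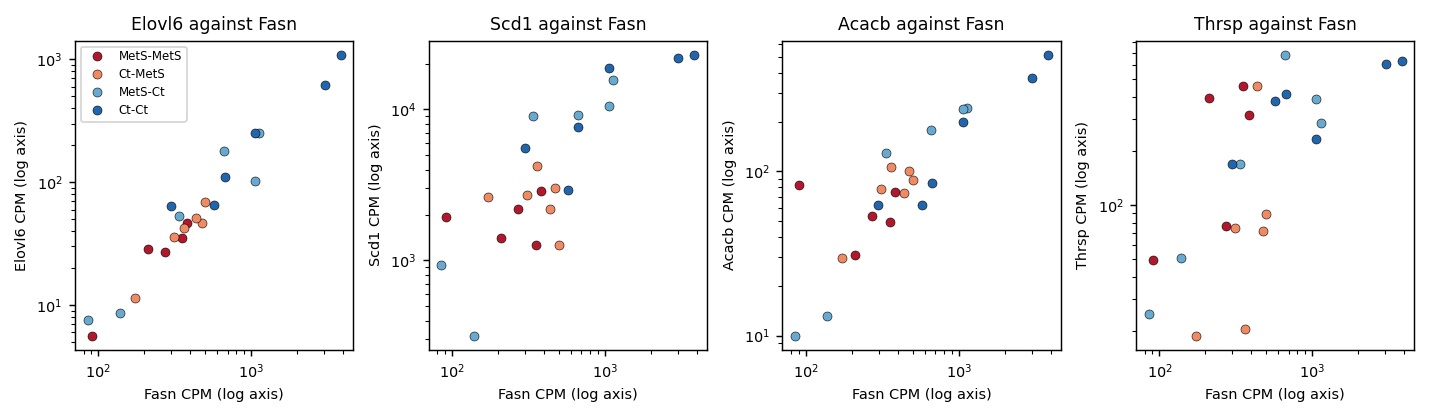
Elovl6, Scd1, Acacb and Thrsp against Fasn in 23 livers, as CPM on log axes, with 1 point per liver coloured by group. With group means removed and groups pooled, Elovl6 follows Fasn closely (r = 0.962), Scd1 and Thrsp less so (r = 0.726 and 0.708). MetS-MetS_39 stands off the others for Acacb at 83.2 CPM.

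Among 11 tested paralogs of these genes, 1 rose and 0 fell with nursing exposure, which is near the share of all genes that passed (4.22%). It was Acsf2, an acyl-CoA synthetase of mitochondria, with 101 ± 9.42 CPM in MetS-MetS and 85.7 ± 20.03 in Ct-MetS, against 69.9 ± 10.3 in MetS-Ct and 66.6 ± 6.52 in Ct-Ct (SD, log2 fold change 0.45 ± 0.093 SE, adjusted p = 0.0104). Elovl2, an elongase of polyunsaturated fatty acids, did not pass (0.39 ± 0.12, adjusted p = 0.0726). Me2, the mitochondrial malic enzyme (0.28 ± 0.085, adjusted p = 0.0654), and Elovl3 (1.198 ± 0.46, adjusted p = 0.138), an elongase of very long chains, did not pass either.

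Genes that supply carbon and NADPH to the pathway fell in 5 of 26 cases and rose in 0 with nursing exposure. That is a share of 19.2%, against 4.22% of all genes tested. G6pdx, the entry enzyme of the pentose phosphate route and a source of NADPH, had 8.09 ± 1.03 CPM in MetS-MetS and 10.7 ± 1.57 in Ct-MetS, against 22.6 ± 15.2 in MetS-Ct and 42.5 ± 36.0 in Ct-Ct (SD). It fell by 1.74 ± 0.41 log2 units (adjusted p = 0.0208). Pdhb and Pdha1, subunits of pyruvate dehydrogenase, fell by 0.45 ± 0.083 (adjusted p = 0.00468) and 0.26 ± 0.059 (adjusted p = 0.0156). Gpi1, glucose phosphate isomerase, fell by 0.73 ± 0.17 (adjusted p = 0.0190). Pklr, the liver pyruvate kinase (−1.003 ± 0.35, adjusted p = 0.103), Slc25a1, the mitochondrial citrate carrier (−0.13 ± 0.16, adjusted p = 0.680), and Pdk4, a kinase that inhibits pyruvate dehydrogenase (0.54 ± 0.41, adjusted p = 0.481), did not pass.

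Of 29 regulators of lipogenesis, 1 fell with nursing exposure and 0 rose, a share of 3.45% against 4.22% of all genes tested. It was Mlxipl, the gene of the glucose-sensing transcription factor ChREBP, with a log2 fold change of −0.46 ± 0.10 (adjusted p = 0.0134). Mlxipl averaged 197 ± 21.8 CPM in MetS-MetS and 234 ± 19.9 in Ct-MetS, against 262 ± 46.2 in MetS-Ct and 332 ± 78.4 in Ct-Ct (SD). Srebf1, which encodes the insulin-responsive sterol regulatory factor, averaged 232 ± 116 CPM in MetS-MetS and 226 ± 38.5 in Ct-MetS, against 228 ± 71.6 in MetS-Ct and 258 ± 49.7 in Ct-Ct (SD), and did not pass (−0.082 ± 0.22, adjusted p = 0.870). Neither Nr1h3, which encodes the oxysterol receptor LXR-alpha (0.091 ± 0.041, adjusted p = 0.200), nor Usf2, an E-box factor (−0.12 ± 0.053, adjusted p = 0.201), passed, and nor did Prkab1, a subunit of the AMP-activated kinase (−0.15 ± 0.077, adjusted p = 0.256).

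With group means removed and groups pooled, Fasn was set against genes of these lists in 6 relations. This family was added after seeing the data, and 5 of its relations are given. Slc25a1 had r = 0.857 and rho = 0.792 (permutation p = 1e-05 and 0.00022, adjusted 3e-05 and 0.00066). Pklr had r = 0.792 and rho = 0.822 (permutation p = 1e-05 each, adjusted 3e-05 and 6e-05). Without Ct-Ct_129 and Ct-Ct_139, r was 0.855 for Slc25a1 and 0.825 for Pklr. Mlxipl had r = 0.531 (permutation p = 0.0348, adjusted 0.0695) and rho = 0.620 (permutation p = 0.00392, adjusted 0.00784), with r = 0.374 without those livers. Srebf1 had r = 0.389 (permutation p = 0.0525, adjusted 0.0787) and rho = 0.463 (permutation p = 0.0321, adjusted 0.0482), with r = 0.432 without them. Pdk4 (r = −0.0382, permutation p = 0.852, and rho = 0.0879, permutation p = 0.699) did not pass.

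Patterns after removal of group means, with groups pooled, were compared over 12820 of the 14466 genes tested. Predicted genes and pseudogenes were among those left out. Closest to the mean z-score of the 10 genes was the pattern of Chrna4, a nicotinic acetylcholine receptor subunit (r = 0.929). Next came Pgd (r = 0.925) and G6pdx (r = 0.902), both of the pentose phosphate route, and Aacs, the acetoacetyl-CoA synthetase (r = 0.918). Pigb, Tkt, Hsd17b12 and Tecr followed at 0.892, 0.890, 0.888 and 0.880. The most opposite were Agt, the angiotensinogen gene (r = −0.918), Cyp2d26 (r = −0.905), Hp, which encodes haptoglobin (r = −0.887), and Ist1 (r = −0.873). The 1st and 99th percentiles over all these genes were −0.696 and 0.756. Of these 12 genes, Chrna4 (−2.81 ± 0.74, adjusted p = 0.0369) and G6pdx fell with nursing exposure and the others did not pass. Chosen after their values were seen, the genes closest to Thrsp were Gbe1, the glycogen branching enzyme (r = 0.924), and Pygl, the liver glycogen phosphorylase (r = 0.903), and the closest to Scd2 was Pygb, the brain form (r = 0.855).

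Among 23 tested genes that use new fatty acids, 3 rose and 1 fell with nursing exposure, a share of 17.4% against 4.22% of all genes. Acsl1, an acyl-CoA synthetase of the liver, rose by 0.51 ± 0.12 log2 units (adjusted p = 0.0175), and Fitm1, a lipid droplet factor of low level here (0.831 to 2.48 CPM as group means), by 1.11 ± 0.28 (adjusted p = 0.0251). Fads2, a desaturase of polyunsaturated fatty acids, rose by 0.80 ± 0.22 (adjusted p = 0.0449). Pnpla3, whose product acts on lipid droplet triglyceride, averaged 2.62 ± 1.18 CPM in MetS-MetS and 6.32 ± 3.36 in Ct-MetS, against 14.4 ± 16.0 in MetS-Ct and 34.1 ± 30.5 in Ct-Ct (SD). Its log2 fold change was −2.45 ± 0.53 (adjusted p = 0.0133). Of 22 genes of cholesterol synthesis, which share regulators with lipogenesis, 0 passed by edgeR and 0 had an unadjusted p under 0.05, with a median of −0.20. Over all genes the shares were 4.22% and 21.2%. Fdps, the farnesyl diphosphate synthase (−0.84), Pmvk, the phosphomevalonate kinase (−0.61, adjusted p = 0.274), Acat2 (−0.48) and Ggps1 (−0.11) came nearest to the threshold.

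Of 26 genes of the fasting response, 10 rose and 0 fell with nursing exposure, with a median of 0.47. That is a share of 38.5%, against 4.22% of all genes tested. Vnn1, a pantetheinase, had 52.8 ± 19.7 CPM in MetS-MetS and 40.3 ± 26.1 in Ct-MetS, against 13.9 ± 8.13 in MetS-Ct and 11.4 ± 5.28 in Ct-Ct (SD), and rose by 1.88 ± 0.34 log2 units (adjusted p = 0.00596). Cpt2, of mitochondrial fatty acid import, rose by 0.52 ± 0.12 (adjusted p = 0.0150), Hadha, of beta-oxidation, by 0.33 ± 0.066 (adjusted p = 0.00899) and Bdh1, of ketone metabolism, by 0.50 ± 0.11 (adjusted p = 0.0135). In MetS-MetS over Ct-Ct, 14 of the 26 rose and 0 fell, a share of 53.8% against 5.78% of all genes. In Ct-MetS over Ct-Ct 0 of the 26 passed, with a median of 0.36, where 0.954% of all genes passed. In MetS-MetS over MetS-Ct 0 of the 26 passed, with a median of 0.48, where 0.415% of all genes passed. The calls of this list were not examined without Ct-Ct_129 and Ct-Ct_139, where MetS-MetS over Ct-Ct gave 21 genes in all.

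Markers of Kupffer cells and macrophages rose with nursing exposure in 6 of 12 cases and erythroid markers in 6 of 12, with 0 lower, where 4.22% of all genes passed. Of endothelial markers 1 of 10 and of stellate cell markers 1 of 12 passed, counts near that share. Summed Kupffer cell and macrophage markers ran from 606 to 997 CPM in MetS-MetS and 684 to 964 in Ct-MetS, against 631 to 709 in MetS-Ct and 474 to 617 in Ct-Ct. Summed erythroid markers ran from 428 to 777 CPM in MetS-MetS and 207 to 499 in Ct-MetS, against 185 to 306 in MetS-Ct and 288 to 834 in Ct-Ct. Their part in the result was not tested. Fat tissue also makes fatty acids, and of 10 adipocyte markers only 4 reached the count minimum. With nursing exposure 0 of these passed, with 2 at an unadjusted p under 0.05, against 21.2% of all genes. In Ct-MetS over Ct-Ct, 1 of the 4 was called higher, where 0.954% of all genes passed. Summed adipocyte markers, among them Pck1, which hepatocytes also express, ran from 2178 to 3880 CPM in MetS-MetS and 764 to 4142 in Ct-MetS, against 1889 to 3492 in MetS-Ct and 576 to 3863 in Ct-Ct. Lep, which encodes a fat cell hormone, was at 0 counts in all 23 livers. Of the pancreas acinar markers, 4 (Cela2a, Prss2, Pnlip and Cel) were at 0 in all livers, the 1 that was tested did not pass, and cholangiocyte (9 tested) and lymphocyte (12 tested) markers gave 0 calls with nursing exposure, with 0 and 3 at an unadjusted p under 0.05.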

How the data were processed

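Liver polyA RNA from 23 pups was sequenced after directional library preparation, per the labels' protocols. The authors deposited 1 table of read counts per Ensembl gene, made with FastQC, STAR and HTSeq, with DESeq2 also named, per the submitters' processing notes. Its name calls the values normalised, but they are whole numbers with unequal totals and were treated as raw counts. No source used here gives the genome build, the strand setting or the handling of multiply matching reads. Totals ran from 16876460 to 34527932 counts per library.

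The 14466 genes averaging 10 or more counts were tested with edgeR 4.0.16 (R 4.3.3): TMM factors, robust quasi-likelihood fit, 1 mean per group over 23 libraries, Benjamini-Hochberg adjustment over all genes tested, threshold 0.05. Errors of fold changes are standard errors. All adjusted p-values of single genes come from this fit unless DESeq2 (1.42.0) is named. CPM uses effective library sizes. Nursing exposure averages both birth states. The script was tested on simulated data.

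Relations used log2(CPM + 1) with group means removed and 100000 two-sided permutations within groups, whose smallest p is 1e-05, adjusted over 45 pairs or 6 relations. Gene coordinates and exon lengths are from GENCODE M21 (GRCm38), joined by Ensembl identifier, and promoters are from RefSeq. No column lacked a sample.

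The 10 genes and all lists were chosen with earlier results of these data known. Beside the 10, the text names up to 4 genes per pathway list by smallest p for nursing exposure, always Srebf1, Mlxipl, Pklr, Slc25a1 and Pdk4, and the 8 tested genes most like and 4 least like the mean z-score of the 10, leaving out predicted genes and pseudogenes. Of the genes this rule names, 2 are not reported here. Alternatives were DESeq2, RLE factors, other count filters, fits of 2 groups and leaving out livers.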

Additional observations from a re-analysis of the deposited data

Results flagged for a closer look

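In 4 of 40 groups of 5 or 6 livers (10 genes in 4 groups), 1 liver lay farther from the rest than Dixon's 95% limit allows, where chance flags about 1 in 20. Ct-MetS_50 was the lowest of its group for Acacb, at 29.9 CPM, and for Elovl6, at 11.4 CPM. MetS-MetS_39 was the lowest of its group for Elovl6, at 5.65 CPM. Ct-MetS_169 was the highest of its group for Scd2, at 33.3 CPM. The cause was not tested.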

How the results depend on the processing

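No paired analysis was possible because the animals' numbers are not shared between groups. Under DESeq2, genes called were 14 for MetS-Ct over Ct-Ct, 425 for Ct-MetS over Ct-Ct, 1346 for MetS-MetS over Ct-Ct, 136 for MetS-MetS over MetS-Ct, 73 for MetS-MetS over Ct-MetS, 1038 for nursing, 165 for prenatal exposure and 4 for the interaction. Of the 10 genes, DESeq2 called 6 for Ct-MetS over Ct-Ct, 1 for MetS-MetS over MetS-Ct and 7 for nursing. For Ct-MetS over Ct-Ct, 0 of the 10 were called with RLE factors, with filterByExpr, with no count filter and with only 2 groups fitted (47 genes). With no count filter, genes called were 457 for MetS-MetS over Ct-Ct (1 of the 10), 20 for MetS-MetS over MetS-Ct and 367 for nursing (2 of the 10). MetS-MetS over MetS-Ct gave 31 genes with filterByExpr and 23 with only 2 groups fitted, a fit that left 1 of the 10 for MetS-MetS over Ct-Ct. Without Ct-Ct_129 and Ct-Ct_139, 0 of the 10 were called in any comparison, and genes called were 5 for Ct-MetS over Ct-Ct, 21 for MetS-MetS over Ct-Ct, 14 for MetS-MetS over MetS-Ct, 241 for nursing and 0 for prenatal exposure. Log2 fold changes then turned to 0.040 for Acss2 and 0.42 for Acacb (MetS-Ct over Ct-Ct), and for Scd2 to 0.065 (MetS-MetS over Ct-Ct) and 0.17 (nursing). The interaction turned to −0.47 for Acly, −0.59 for Acss2, −0.88 for Acacb, −0.35 for Fasn, −0.31 for Elovl6 and −0.28 for Scd1. Without MetS-Ct_70 and MetS-Ct_97, 4 of the 10 were called for Ct-MetS over Ct-Ct and 8 for nursing, genes called were 0 for MetS-MetS over MetS-Ct, 312 for nursing and 0 for prenatal exposure, and the interaction turned to −0.43 for Acss2, −0.33 for Acacb and −0.20 for Scd1. Leaving out 1 liver at a time gave 12 (Ct-MetS_169) to 246 (Ct-Ct_33) genes and 0 to 3 of the 10 for Ct-MetS over Ct-Ct, 219 (Ct-Ct_129) to 1354 (Ct-Ct_33) genes and 0 to 7 of the 10 for MetS-MetS over Ct-Ct, 5 (MetS-Ct_70) to 151 (MetS-MetS_39) genes for MetS-MetS over MetS-Ct, 0 to 31 (MetS-MetS_39) for MetS-MetS over Ct-MetS, 349 (MetS-MetS_154) to 923 (Ct-MetS_50) genes and 2 to 7 of the 10 for nursing, and 0 to 22 (Ct-Ct_33) for prenatal exposure. The same step crossed 0 for Scd2 in MetS-Ct over Ct-Ct (−0.075 to 0.18) and nursing (−0.18 to 0.047), Thrsp in MetS-MetS over MetS-Ct (−0.35 to 0.49) and prenatal exposure (−0.026 to 0.82), Acaca (−0.36 to 0.010) and Me1 (−0.092 to 0.13) in MetS-MetS over Ct-MetS, the interaction of Acss2 (−0.17 to 0.51) and Acacb (−0.25 to 0.46), and r of Fasn with Pdk4 (−0.206 to 0.223). The cause was not tested.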
